A study of Mus musculus with 8 samples.

Results

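The data described here are the accessible regions at 40 mouse genes of the pluripotent and epithelial programmes, in leukaemia cells induced to express Klf4. The 40 genes were taken by name, 14 from the pluripotency network and 26 from epithelia, and a peak belonged to one of them when its summit lay in the gene body or within 20 kb of it (mm10). All 40 matched the gene table of 21887 protein-coding genes. Their windows held 55 of the 32730 regions found anywhere in the genome, where a region is a set of peaks of the 8 libraries that overlap by at least 1 bp. A region was found at 26 of the 40 genes, and none at the other 14.

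The cells were GFP-positive, sorted from the bone marrow of leukaemic mice, and carried the MLL-AF9 fusion together with TetO-Klf4, a Klf4 construct inducible by doxycycline (Dox). All groups shared both alterations, and the labels give C57BL/7 as cell line. The assay was ATAC-seq, which marks open chromatin by the adapters that a transposase leaves in exposed DNA, at 0, 6, 12 and 24 hours with 2 libraries a time. Whether Dox had already been given at 0h is not stated in the labels, nor whether the libraries of a time came from separate mice, so the p-values below measure the spread between libraries, which may be technical. The design asked how accessibility changed as Klf4 eliminated leukaemia cells, and the lists chosen here put to it whether regions at genes known from stem cells and epithelia opened.

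KLF4 is a zinc-finger transcription factor that binds GC-rich and CACCC-type elements. It is one of the factors used to reprogramme somatic cells to pluripotency, and in embryonic stem cells it acts beside OCT4 (the product of Pou5f1), SOX2, NANOG and ESRRB. In skin and gut it is known for its part in barrier formation and terminal differentiation, where epithelial adhesion genes, keratins and intestinal alkaline phosphatase are expressed. Blood cells normally use neither programme.

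The depth of a library limits what can be called in it. Peak lists held 14826 to 21903 peaks, fewest at 24h. Background, from the lowest local background of each list, ran from 1.5 tags per kb in replicate 2 of 0h to 2.67 in replicate 1 of 0h, so a missing peak carries the least weight in the first of these. Background at 24h was 2.3 and 2.37 tags per kb, within the range of the earlier libraries. The labelled cell type was checked on 30 myeloid and leukaemia genes. All 30 had a peak in their window in at least 1 library, and 24 (80.0%) in every library, against 73.2% and 55.0% of all protein-coding genes. At the gene ends the picture was mixed: 21 of the 30 (70.0%) had a peak within 1 kb in at least 1 library, against 49.3% of all coding genes, but 7 (23.3%) in all 8 libraries, against 32.7%. Fcgr3 (a myeloid Fc receptor) had 4 regions called in all 8 libraries, though a peak at its own end in 2 libraries only, and Spi1 and Runx1, both blood transcription factors, had 3 each. Mpo and Lyz2, both myeloid granule genes, and Csf1r, a macrophage growth factor receptor, had no region in all 8 libraries and no peak at their own ends; they were named after their values were seen. The induced gene itself, Klf4 (chromosome 4, 55527137 to 55532475), had a region inside it (55530055 to 55530940) in all 8 libraries, 0h included; the construct and the endogenous gene share sequence and cannot be told apart there. In a bulk library, a site open in few cells and a site slightly open in many cells cannot be told apart either.

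Promoter sequence from RefSeq (GRCm38.p6) was matched for 25 of the 40 genes, as windows of 300 bases with 250 before the listed start and 50 from it on. The first 3 below are the promoters that a peak overlapped in any library, and Pou5f1 is shown for contrast, as a pluripotency gene with no peak over its own start; Lama5 was added after its values were seen. Sequences run 5′ to 3′ on the strand of the gene, and capitals mark CACCC or its complement GGGTG, and the longer CCACNCCC or its complement GGGNGTGG, which can overlap one another.
Tfcp2l1 (chr1:118627695-118627994, plus strand): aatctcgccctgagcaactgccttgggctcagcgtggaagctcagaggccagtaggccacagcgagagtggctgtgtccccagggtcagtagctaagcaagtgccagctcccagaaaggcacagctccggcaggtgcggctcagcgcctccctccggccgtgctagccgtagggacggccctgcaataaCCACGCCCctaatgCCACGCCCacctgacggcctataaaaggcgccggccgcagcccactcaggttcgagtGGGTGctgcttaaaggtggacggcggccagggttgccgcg
Ovol2 (chr2:144331313-144331612, minus strand): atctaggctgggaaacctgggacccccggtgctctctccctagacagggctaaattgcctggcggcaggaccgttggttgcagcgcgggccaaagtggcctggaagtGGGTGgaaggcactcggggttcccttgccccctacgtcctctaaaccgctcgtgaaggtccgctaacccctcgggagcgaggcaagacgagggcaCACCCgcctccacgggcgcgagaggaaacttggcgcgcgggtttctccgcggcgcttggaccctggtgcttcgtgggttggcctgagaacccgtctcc
Lama5 (chr2:180225810-180226109, minus strand): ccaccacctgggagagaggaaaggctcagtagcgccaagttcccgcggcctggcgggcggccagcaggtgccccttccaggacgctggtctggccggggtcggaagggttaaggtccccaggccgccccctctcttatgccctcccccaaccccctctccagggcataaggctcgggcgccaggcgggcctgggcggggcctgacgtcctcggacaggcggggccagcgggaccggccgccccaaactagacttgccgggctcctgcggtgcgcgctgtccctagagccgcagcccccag
Pou5f1 (chr17:35505782-35506081, plus strand): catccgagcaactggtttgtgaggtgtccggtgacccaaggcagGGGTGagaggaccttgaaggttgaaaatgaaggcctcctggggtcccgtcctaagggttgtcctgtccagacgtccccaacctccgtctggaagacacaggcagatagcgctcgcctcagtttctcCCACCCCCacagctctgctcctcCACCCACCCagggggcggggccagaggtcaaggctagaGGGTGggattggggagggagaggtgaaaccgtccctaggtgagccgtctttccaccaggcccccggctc

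The Tfcp2l1 window held 1 CACCC match and 2 CCACNCCC matches, that of Ovol2 held 2 CACCC matches, that of Pou5f1 held 5 and 1, and that of Lama5 held neither motif. Over both strands, CACCC occurred in 57.5% and CCACNCCC in 17.6% of the 32851 promoters of the table, and in 25 (83.3%) and 10 (33.3%) of the 30 windows of the listed genes. These 30 windows came from 25 genes, and the 2 of Nanog overlapped and held the same matches. The 32851 promoters likewise came from fewer gene symbols, 27025. A match describes the letters only, since KLF4 binding was not measured here. Peaks overlapped the windows of 3 genes: Tfcp2l1 in 3 libraries, Ovol2 in 2 and Lama5 in 4, and the Pou5f1 window in none.

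The gene ends of the 2 programmes were largely without peaks. None of the 40 genes had a peak within 1 kb of either of its ends in all 8 libraries, while 7152 of the 21887 protein-coding genes (32.7%) did. In at least 1 library, 6 of the 40 genes (15.0%) had such a peak, compared with 49.3% of protein-coding genes. These 6 were Tfcp2l1, Ovol2, Epcam, Lama5, Alpi and Muc1. In single libraries the share was 0% to 12.5% for the 40 genes and 37.9% to 44.4% for all coding genes. With the window of 20 kb the 2 sets were closer, at 65.0% of the listed genes and 73.2% of all coding genes in at least 1 library, and 25.0% and 55.0% in every library.

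**Figure D1:**
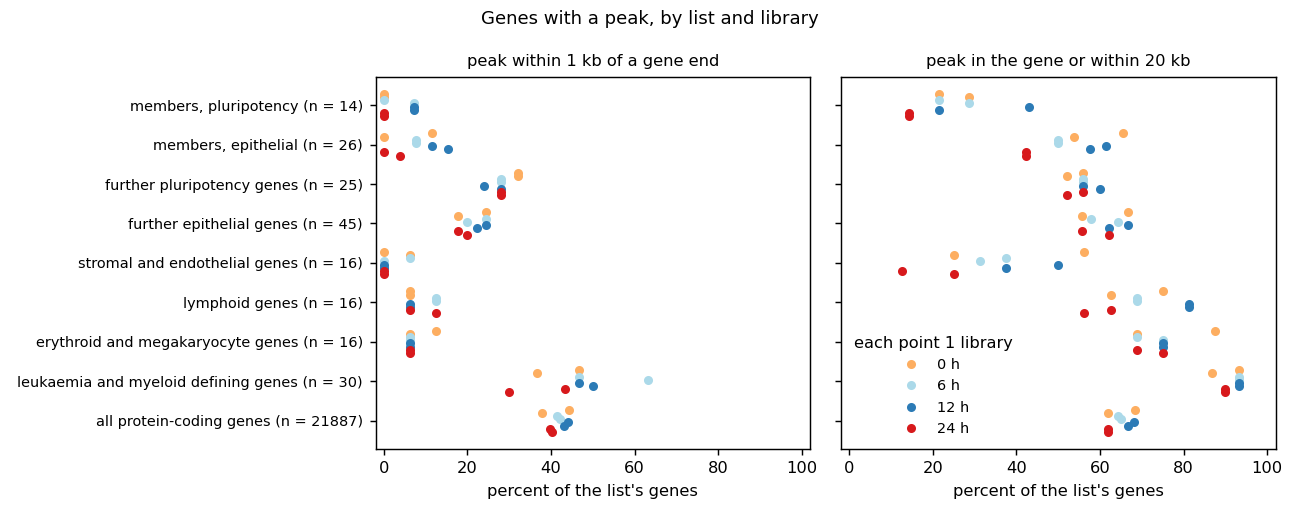
Percent of the genes of each list with a peak within 1 kb of a gene end (left) and with a peak inside the gene or up to 20 kb away (right), each point being 1 of the 8 libraries, coloured by time and stacked downwards from 0h to 24h within a list. In the left panel the listed pluripotency and epithelial genes lie between 0% and 15.4%, and all protein-coding genes between 37.9% and 44.4%.

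The regions in the windows were sorted by the gene end they lay nearest to. Of the 55 regions, 31 were nearer to an end of a listed gene than to any other protein-coding gene, 14 lay within 1 kb of the end of another gene, and 10 were nearest to another gene at a greater distance. Non-coding genes were left out of this sorting, and 5 of the 31 lay within 1 kb of the end of one. None of the 31 was called in all 8 libraries and 13 were called in 1, with a median of 2 libraries and a median pile-up of 9 tags at the summit. This depends on the sorting rule at Krt8, whose window held 2 regions called in all 8 libraries. They were only slightly nearer to Krt78 and so are not among the 31. Of the 14 regions at neighbours' ends, 9 were called in all 8 libraries and none in 1, with a median of 22 tags. Of the other 10, 4 were called in every library. Genome-wide, 61.3% of the 9994 regions within 1 kb of a coding gene end and 13.4% of the 22736 regions farther away were called in all 8 libraries. For the 55 regions together the figure was 13 (23.6%, Wilson 95% interval 14.4% to 36.3%), where all regions gave 28.0%, and 15 (27.3%, 17.3% to 40.2%) were called in 1 library only, where all regions gave 27.9%. Such intervals cover counting error only. Both shares of the 55 were close to those of the genome as a whole.

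**Figure D2:**
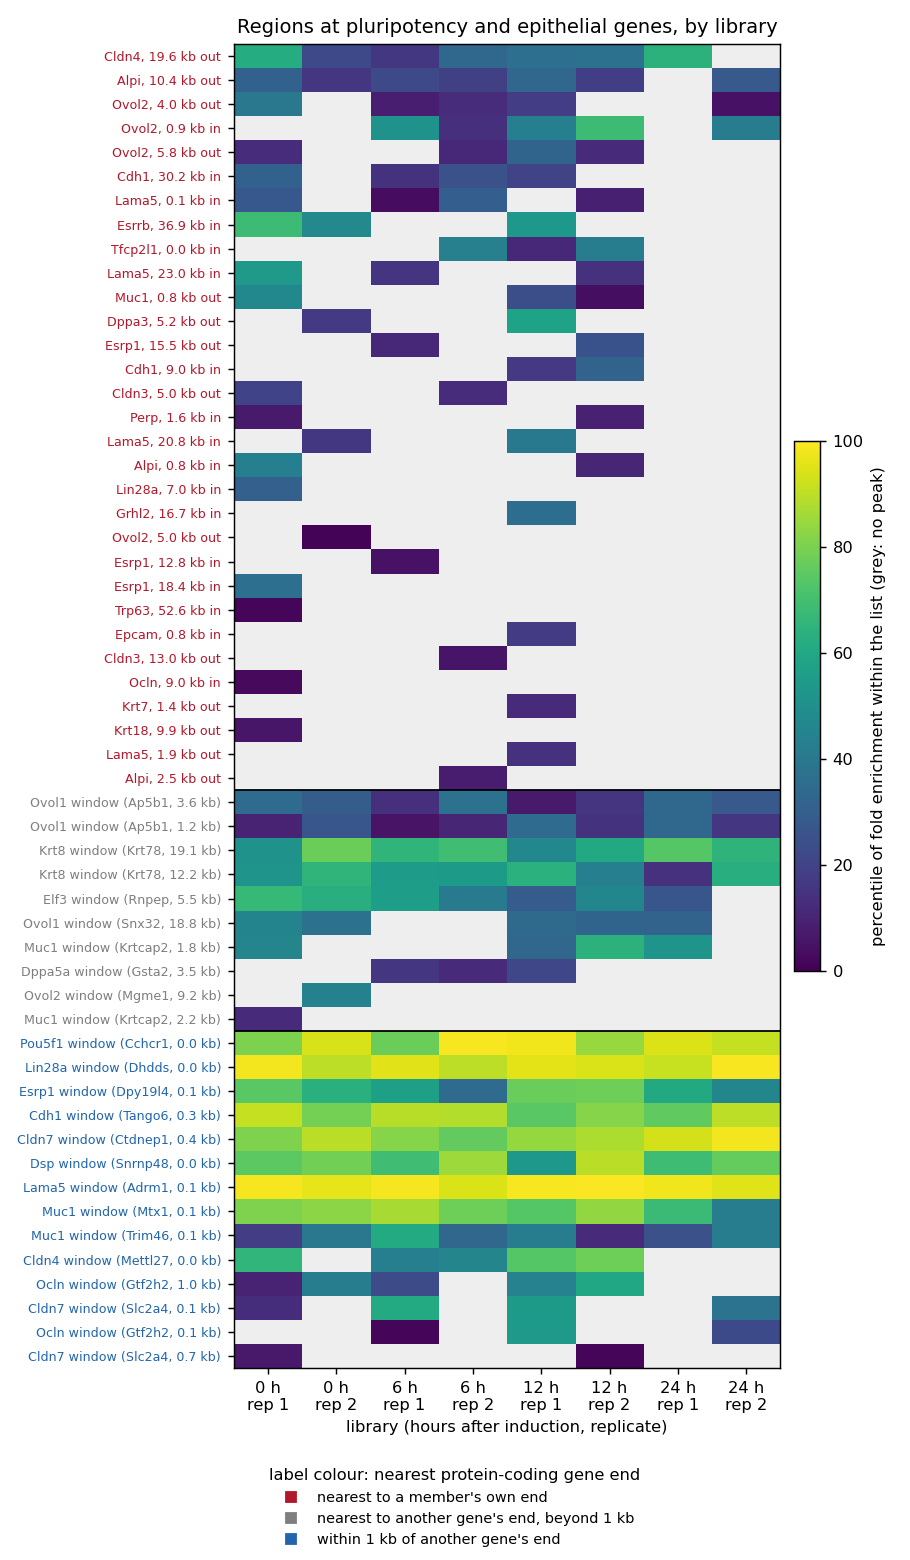
All 55 regions (rows) in the 8 libraries (columns, 0h to 24h), coloured by the percentile of the peak's fold enrichment within the list of its library, with grey for no peak. Labels give the listed gene with the distance to its own nearer end, inside (in) or outside (out) the gene body, or its window with the neighbouring gene that is nearest in brackets; rows of unbroken high percentiles lie in the lowest block, at neighbours' gene ends, and the upper block of 31 rows is sparse, most of all at 24h.

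Among the pluripotency transcription factors, Sox2, Nanog, Tbx3, Prdm14, Zfp42 and Sall4 had no region in any library, and Pou5f1, Esrrb and Tfcp2l1 had 1 each. The region in the window of Pou5f1 (chromosome 17, 35516593 to 35517247) lay 6.26 kb outside the gene and 12 bp from an end of Cchcr1. The fold enrichment of a peak, here and below, is the authors' own ratio of the summit pile-up to local background, and it was 10.98 and 13.3 (0h), 11.1 and 16.5 (6h), 15.4 and 12.0 (12h), and 14.0 and 13.7 (24h), for replicates 1 and 2. All 8 values stood at or above the 77.5th percentile of their lists, and the times overlapped.

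Esrrb encodes an orphan nuclear receptor of the stem cell network. Its region (chromosome 12, 86484465 to 86484945) lay inside the gene, 36.9 kb from the nearer end. Peaks had folds of 9.56 and 7.42 at 0h and 8.48 in replicate 1 of 12h, with 14, 8 and 12 tags at the summit, and no peak was called at 6h or 24h. The region thus counted as lost at 6h and again at 24h, lost meaning a peak in both 0h libraries and in neither library of the later time, but not at 12h.

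Tfcp2l1 encodes a transcription factor of naive pluripotency and was the only listed pluripotency gene with a peak within 1 kb of its own end. The region (chromosome 1, 118627821 to 118628193) covered the listed start, with summits 3 bp and 25 bp before the start and at the start itself. Folds were 7.51 in replicate 2 of 6h and 5.16 and 7.58 at 12h, from 10, 7 and 10 tags, and there was no peak at 0h or 24h. It counted as gained at 12h, that is, called in both libraries of that time and in neither 0h library, a call that ended at −log10 q of at least 5 and in lists of equal length. The peaks were of low to middling rank, at the 43.7th, 11.1th and 42.0th percentile of their lists.

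Of the other pluripotency genes, Tdgf1 (the Nodal co-receptor Cripto) and Fgf4 had no region. Lin28a, an RNA-binding protein that blocks maturation of let-7, had a region 34 bp from an end of its neighbour Dhdds (chromosome 4, 134000638 to 134001143) and 2.41 kb outside its own body. Folds were 14.8 and 12.2 (0h), 14.5 and 13.2 (6h), 14.6 and 13.8 (12h), and 13.2 and 16.8 (24h). A second region inside Lin28a was called in 1 library, replicate 1 of 0h, at a fold of 6.28. Dppa3, a maternal and germ-line factor, had a region 5.23 kb away in replicate 2 of 0h and replicate 1 of 12h, with folds of 5.47 and 8.92. The region in the window of Dppa5a (chromosome 9, 78350211 to 78350793) was 16.3 kb from that gene and 3.55 kb from Gsta2, a glutathione transferase gene. Its folds were 5.61 and 5.21 at 6h and 5.95 in replicate 1 of 12h, and it counted as gained at 6h, although the 2 peaks at 6h shared only 2 bp and their summits were 181 bp apart.

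The epithelial regulators are transcription and splicing factors that hold cells in the epithelial state, and 6 of the 7 had regions, Ehf being the exception. Ovol2, a zinc-finger repressor of mesenchymal genes, had 4 regions nearest to its own ends, as did Lama5. The one at its start (chromosome 2, 144330856 to 144331406) had no peak at 0h. Folds there were 8.20 and 5.40 at 6h, 7.65 and 9.99 at 12h, and 7.84 in replicate 2 of 24h, from 12, 8, 13, 17 and 11 tags. It counted as gained at 6h and at 12h and was the only one of the 55 to be called gained at more than 1 time; replicate 1 of 24h had no peak. The call at 6h ended at −log10 q of at least 5 and in lists of equal length, and the call at 12h held in both. Summits lay 94 to 253 bp past the start of the promoter table, so the peaks overlap the printed window in 2 libraries and lie just downstream of it in the rest, and the outermost end of the gene record is 921 bp away.

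Outside the gene, Ovol2 had a region 3.97 kb away (144300725 to 144301415) with folds of 6.98 in replicate 1 of 0h, 5.05 and 5.28 at 6h, 5.68 in replicate 1 of 12h and 4.76 in replicate 2 of 24h. A region 5.77 kb away on the other side (144337393 to 144338046) had folds of 5.05 in replicate 1 of 0h, 5.19 in replicate 2 of 6h, and 6.78 and 5.32 at 12h. Neither was gained or lost at any time by the rule. Another region of its own, 5.01 kb away, and one in its window nearest to Mgme1 each had 1 peak, both in replicate 2 of 0h.

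**Figure D3:**
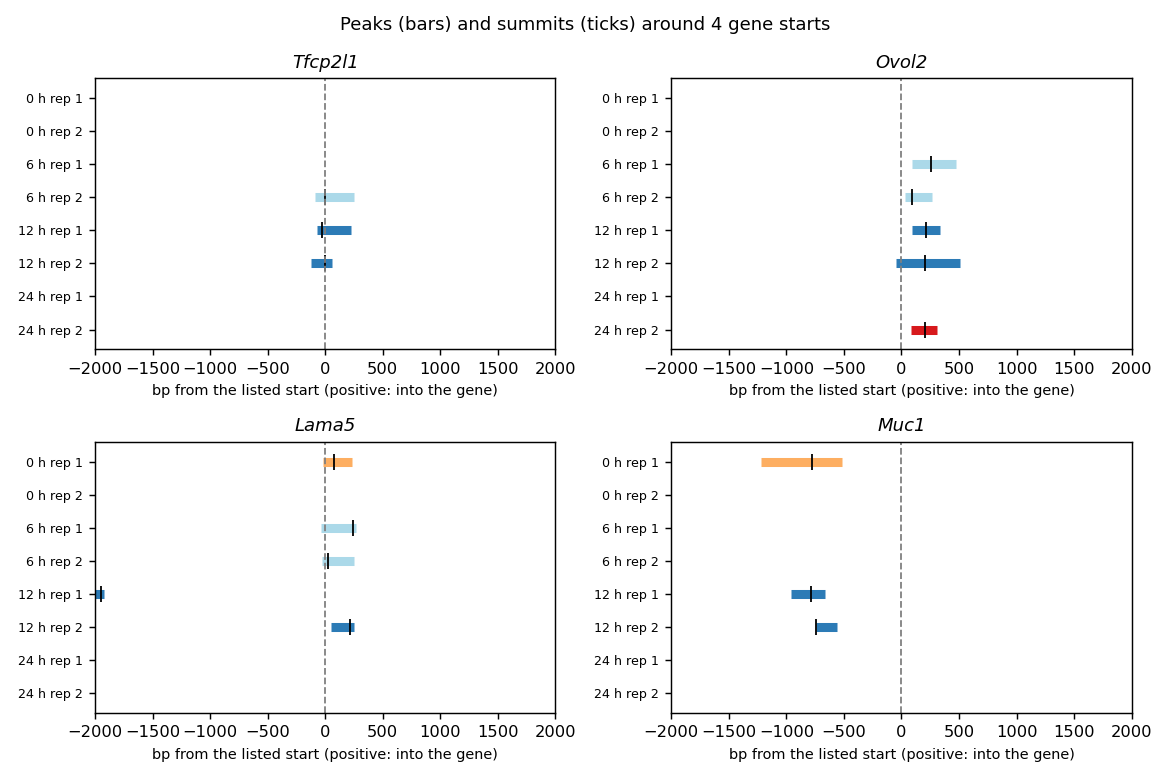
Peaks (bars) and their summits (black ticks) close to the listed starts of Tfcp2l1, Ovol2, Lama5 and Muc1, with rows for the 8 libraries from 0h at the top to 24h at the bottom and positive distances running into the gene. Tfcp2l1 and Ovol2 have no bar at 0h, bars in both libraries at 12h, and at 24h only Ovol2 has one, in replicate 2; Lama5 and Muc1 already have a bar in replicate 1 of 0h and none at 24h.

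The window of Ovol1, the paralogue of Ovol2, held 3 regions and none was nearest to Ovol1. The region 19.6 kb from the gene (chromosome 19, 5529384 to 5529861) had folds of 7.36 and 6.75 at 0h, 6.98 and 6.82 at 12h and 6.87 in replicate 1 of 24h, and none at 6h, which made it lost at 6h. Both other regions, 3.65 and 1.22 kb from Ap5b1, were called in every library. Folds of the first were 6.64 and 6.28 (0h), 5.46 and 7.05 (6h), 4.88 and 5.57 (12h), and 6.98 and 6.68 (24h). Folds of the second were 4.72 and 6.11 (0h), 4.75 and 5.09 (6h), 6.99 and 5.55 (12h), and 7.00 and 5.74 (24h). Their ranks were low for regions called in every library, between the 5.26th and 37.2th percentile.

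Esrp1, an epithelial splicing regulator, had a region in all 8 libraries 69 bp from Dpy19l4, its neighbour. Folds were 10.2 and 8.74 at 0h, 8.72 and 6.85 at 6h, 11.1 in both 12h libraries, and 9.29 and 8.25 at 24h. The 3 regions nearest to Esrp1 itself were called in 1 or 2 libraries, none at 24h. Elf3, an ETS factor of epithelia, had 1 region, 5.49 kb from Rnpep, in 7 libraries with folds of 6.51 to 9.38 and no peak in replicate 2 of 24h. Grhl2, a grainyhead factor, and Trp63, which encodes the basal-cell factor p63, had 1 intragenic peak each, in replicate 1 of 12h (fold 7.06) and replicate 1 of 0h (fold 3.93).

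Adhesion and junction genes had regions at 8 of 9 members, Pkp1 (plakophilin 1 of desmosomes) having none. Cdh1, which encodes E-cadherin, had 2 regions inside the gene and 1 outside. The first intragenic region (chromosome 8, 106612131 to 106612429), 9.01 kb from the nearer end, had folds of 5.65 and 6.81 at 12h and no peak at any other time, so it counted as gained at 12h; the 2 peaks shared 65 bp, which is 39.6% of the shorter one. The second (106633466 to 106634084), 30.2 kb from the nearer end, had folds of 6.34 in replicate 1 of 0h, 5.52 and 6.12 at 6h and 5.89 in replicate 1 of 12h. No peak lay within 1 kb of either end of Cdh1.

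The third Cdh1 region lay 13.1 kb away and 269 bp from Tango6 (106682799 to 106683648). Folds were 12.7 and 10.5 (0h), 12.9 and 12.8 (6h), 10.7 and 11.6 (12h), and 10.9 and 13.4 (24h). Cldn7, a claudin of tight junctions, had a region of the same kind 418 bp from Ctdnep1, with folds of 11.01 and 12.2 (0h), 11.7 and 10.9 (6h), 12.1 and 12.6 (12h), and 13.7 and 15.9 (24h). Its window held 2 further regions at Slc2a4, in 4 and 2 libraries. Dsp (desmoplakin of desmosomes) had a region 16 bp from Snrnp48, with folds of 10.3 and 10.4 (0h), 10.0 and 12.3 (6h), 8.52 and 12.8 (12h), and 10.2 and 11.4 (24h). The times overlapped at Tango6 and Snrnp48, and at Ctdnep1 both 24h peaks were above the rest in fold. Folds are scaled within a library and depend on its depth, and no test was made.

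Ocln (occludin of tight junctions) had a region 2.94 kb outside the gene and 953 bp from Gtf2h2 (chromosome 13, 100493355 to 100493632). Folds were 4.76 and 7.08 at 0h, 6.13 in replicate 1 of 6h, and 7.74 and 9.14 at 12h, with no peak at 24h, so it counted as lost at 24h, a call that ended at −log10 q of at least 5 and in lists of equal length. A second region at Gtf2h2 had 3 peaks and 1 intragenic region had a single peak, in replicate 1 of 0h. Cldn4 had a region 19.6 kb away, in a stretch also within 20 kb of Cldn3 (chromosome 5, 134966039 to 134966662). It had folds of 8.85 and 5.77 (0h), 5.66 and 6.73 (6h), 7.08 and 7.25 (12h), and 9.64 in replicate 1 of 24h. With 7 libraries, this was one of the 2 most often called regions among the 31 nearest to a listed gene. The window of Cldn4 also held a region 30 bp from Mettl27, in 5 libraries and in neither at 24h, with folds of 7.55 to 11.2. Both regions nearest to Cldn3 had peaks in at most 2 libraries. Epcam, the epithelial cell adhesion molecule, had 1 peak inside the gene, 841 bp from an end, in replicate 1 of 12h at a fold of 5.65 from 7 tags. Perp, a desmosomal membrane protein, had an intragenic region in replicate 1 of 0h (4.67) and replicate 2 of 12h (5.11).

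Of the 7 keratins, the intermediate filament proteins of epithelia, Krt4, Krt5, Krt14 and Krt19 had no region. Krt7 had a single peak 1.41 kb away in replicate 1 of 12h, and Krt18 a single peak 9.93 kb away in replicate 1 of 0h. Krt8 had 2 regions in all 8 libraries, 19.2 and 12.3 kb outside the gene (chromosome 15, 101977076 to 101977680 and 101984063 to 101984586), both nearest to Krt78. The margin was narrow: an end of Krt78 lay 19116 and 12219 bp away, and an end of Krt8 19203 and 12306 bp away. Folds of the first were 7.88 and 10.3 (0h), 9.60 and 10.1 (6h), 7.94 and 9.21 (12h), and 10.7 and 10.2 (24h). Folds of the second were 7.93 and 8.95 (0h), 8.61 and 8.45 (6h), 9.52 and 7.67 (12h), and 5.60 and 9.88 (24h). With the 2 at Ovol1, these were the only constitutive regions of the 55 that lay over 1 kb from every coding gene end.

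The surface and matrix genes had regions at all 3 members. Lama5, the laminin alpha5 chain of epithelial basement membranes, had the highest single pile-up of the windows, 71 tags in replicate 1 of 0h, in a region 77 bp from Adrm1 (chromosome 2, 180171090 to 180171967). Folds were 15.2 and 14.1 (0h), 16.2 and 14.1 (6h), 16.4 and 17.0 (12h), and 15.2 and 14.5 (24h). The region at the start of Lama5 (180225594 to 180225893) had folds of 6.02 in replicate 1 of 0h, 4.51 and 6.51 at 6h and 5.10 in replicate 2 of 12h, from 6 to 12 tags, and no peak at 24h. At the most 4 libraries called any of the 4 regions nearest to Lama5.

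Alpi, intestinal alkaline phosphatase, had a region 10.4 kb away (chromosome 1, 87111775 to 87112234), with folds of 6.34 and 5.42 (0h), 6.01 and 5.77 (6h), 6.85 and 5.84 (12h), and 6.65 in replicate 2 of 24h. At 6 to 11 tags these 7 peaks were small, with percentiles of 16.0 to 33.1. Its region 761 bp from an end of the gene, inside it, was called in replicate 1 of 0h (7.20) and replicate 2 of 12h (5.15). Muc1, a membrane mucin, sits among close neighbours, and its window held 5 regions. The one 779 bp from Muc1 had folds of 7.47 in replicate 1 of 0h and 6.19 and 4.51 at 12h. The region 94 bp from Mtx1 had folds of 11.02 and 10.99 (0h), 12.5 and 11.2 (6h), 10.6 and 11.9 (12h), and 10.1 and 7.83 (24h). The region 83 bp from Trim46 had folds of 5.37 and 6.96 (0h), 9.14 and 6.68 (6h), 7.56 and 5.31 (12h), and 6.37 and 7.88 (24h).

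Counted over all 55 regions, gains and losses were few. Gained at 6h were 2 (3.64%; 1.85% of all regions), at Dppa5a and Ovol2, and lost at 6h were 2 (2.34% of all), at Esrrb and Ovol1. Gained at 12h were 3 (5.45%; 4.03% of all), at Tfcp2l1, Ovol2 and Cdh1, and lost at 12h was none, with a Wilson upper bound of 6.53% (1.45% of all). Gained at 24h was none (1.12% of all), and lost at 24h were 2 (4.43% of all), at Esrrb and Ocln. The Wilson interval for 2 of 55, 1.00% to 12.3%, that for 3 of 55, 1.87% to 14.9%, and that for none held the genome-wide share each time. A comparison of 2 libraries with 2 allows no p under 0.33, and none is given. The calls at the 7 regions are descriptions of these libraries. Besides the calls named above, that of Dppa5a at 6h ended at −log10 q of at least 5 and in lists of equal length, and that of Cdh1 at 12h in lists of equal length.

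The counts moved when a library was left out, and so did the share of all regions. The rule then rested on the remaining library of that time alone, both in the windows and over all regions. Without replicate 2 of 0h, the shallowest library, 13 of 53 regions were lost at 6h (24.5%; 16.1% of all regions), 7 at 12h (13.2%; 12.4% of all) and 18 at 24h. The last was 34.0%, with a Wilson interval of 22.7% to 47.4% that lay above the 21.5% of all regions. Without replicate 1 of 0h, 6 of 49 were gained at 6h (12.2%; 8.40% of all), 6 were lost at 6h (6.94% of all), 7 were gained at 12h (14.3%; 13.7% of all), 2 were lost at 12h (4.08%; 5.19% of all) and 6 were lost at 24h (12.2%; 10.2% of all). Gains at 6h were 5 without replicate 1 of 6h (9.09%; 7.52% of all) and 5 without replicate 2 of 6h (9.43%; 6.42% of all). Gains at 12h were 9 without replicate 2 of 12h (16.4%; 13.5% of all), and losses at 12h were 1 without replicate 1 of 12h (1.96%; 3.82% of all). Without replicate 1 of 24h, 2 were gained at 24h (3.64%; 4.03% of all) and 5 lost (9.09%; 7.29% of all). For regions inside gene bodies, the 3 gained at 12h made up 17.6% of 17 regions (interval 6.19% to 41.0%), above the 4.03% of all regions, which are not limited to gene bodies.

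Over the whole set of windows, peaks were fewest at 24h. There were 39 and 24 (0h), 29 and 27 (6h), 37 and 32 (12h), and 17 and 18 (24h). Listed genes with a peak numbered 20 and 18, 16 and 17, 22 and 18, and 13 and 13 in the same order of times. Both 24h libraries were below the other 6 in each count. As a share of the list, the peaks made up 0.179% and 0.153% (0h), 0.167% and 0.149% (6h), 0.169% and 0.162% (12h), and 0.113% and 0.121% (24h), so both 24h shares were again the lowest, although the Wilson intervals of single libraries overlapped (0.0703% to 0.180% in replicate 1 of 24h, 0.123% to 0.233% in replicate 1 of 12h).

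The trend of each measure with hours was tested by two-sided exact permutation over 2520 arrangements of the 8 libraries, for which the smallest p is 0.00079. Spearman's rho for the peaks was -0.49 (p = 0.25, adjusted 0.25 over the 3 measures) and Pearson's r was -0.63 (p = 0.10, adjusted 0.10). For the number of genes, rho was -0.54 (exact p = 0.18, adjusted 0.25) and r was -0.66 (p = 0.082, adjusted 0.10). For the share, rho was -0.59 (exact p = 0.15, adjusted 0.25) and r was -0.81 (p = 0.021, adjusted 0.062). None passed 0.05 after Benjamini-Hochberg adjustment. With replicate 2 of 0h left out, r passed for peaks (-0.82) and share (-0.89), both at an exact p of 0.043 after adjustment. With replicate 1 of 12h left out, it passed for genes (-0.90) and share (-0.87), both at an adjusted exact p of 0.031. Each rested on the 24h pair, the 2 libraries farthest from the median time: without it r was 0.23, 0.21 and -0.03 for peaks, genes and share.

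**Figure D4:**
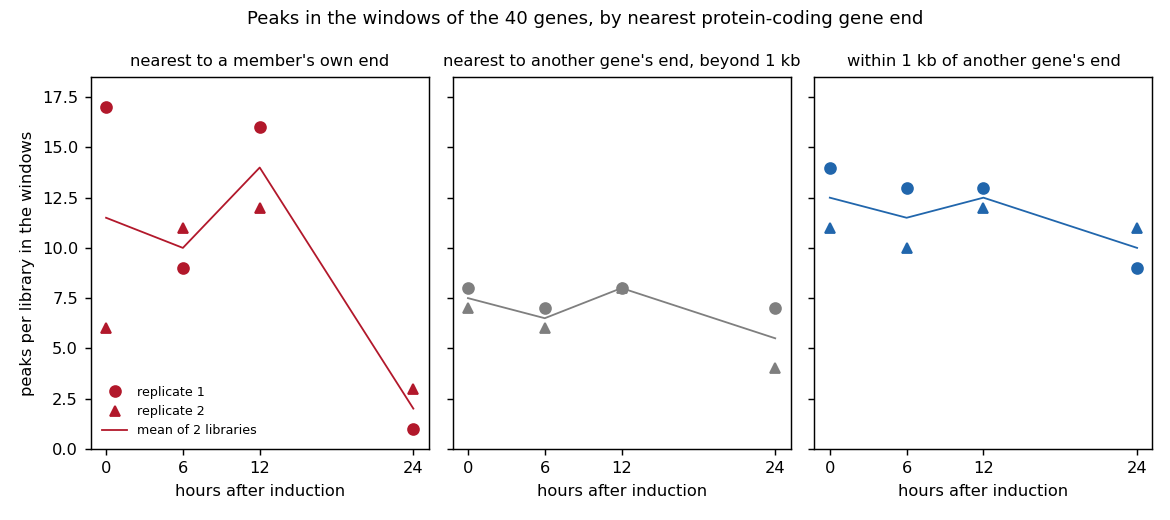
Peaks per library (vertical axis, counts) in the windows of the 40 genes against hours after induction, split by the nearest protein-coding gene end; circles and triangles are replicates 1 and 2 and lines join the mean of the 2 libraries. Peaks nearest to a listed gene number 1 and 3 at 24h and 6 to 17 before, and peaks within 1 kb of another gene's end number 9 and 11 at 24h and 10 to 14 before.

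The peaks nearest to listed genes carried most of the difference between 24h and the earlier times. They numbered 17 and 6 (0h), 9 and 11 (6h), 16 and 12 (12h), and 1 and 3 (24h). At 24h they belonged to 4 regions, at Cldn4 in replicate 1, and at Alpi and both the start and the 3.97 kb region of Ovol2 in replicate 2. None of the 31 regions had a peak in both 24h libraries, while both libraries called 3 of them at 0h, 6 at 6h and 7 at 12h. The regions in the Krt8 window sorted to Krt78 by a narrow margin had peaks in both 24h libraries and are not counted here. Peaks at neighbours' gene ends numbered 14 and 11 (0h), 13 and 10 (6h), 13 and 12 (12h), and 9 and 11 (24h).

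The 24h lists as a whole also held the fewest peaks away from gene ends: those beyond 1 kb of any coding gene end numbered 13029 and 8254 (0h), 9223 and 9790 (6h), 13172 and 11239 (12h), and 7403 and 7017 (24h). Divided by these counts and times 1000, all peaks nearest to listed genes gave 1.30 and 0.727 (0h), 0.976 and 1.12 (6h), 1.21 and 1.07 (12h), and 0.135 and 0.428 (24h). The peaks so divided included those within 1 kb of a listed gene's own end, which the counts beyond 1 kb leave out. Wilson 95% intervals computed on these ratios were 0.0238 to 0.765 and 0.145 to 1.26 at 24h, and 0.815 to 2.09 in replicate 1 of 0h. Both 24h intervals overlapped those of the other earlier libraries. In replicate 1 of 0h, 3 listed genes had a peak within 1 kb of their own end. Because of such peaks the intervals are approximate, and no separation between libraries is read from them. When each list was cut to its 14826 strongest peaks, an alternative chosen for this measure after seeing the data, the peaks nearest to listed genes were 6 and 5 (0h), 3 and 4 (6h), 5 and 4 (12h), and 1 and 3 (24h). Pearson's r of that number with hours was then -0.77 (exact p = 0.029, adjusted 0.029) and rho was -0.72 (exact p = 0.067, adjusted 0.067), so the r passed the threshold and the rho did not. Background was 2.3 and 2.37 tags per kb at 24h and 1.5 to 2.67 in the earlier libraries. Whether depth or list length has a part in the 24h counts was not tested beyond these values.

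Further genes of the same 2 programmes were listed beside the 40, and some of their ends had a peak in every library. Of 25 further pluripotency genes, 6 had a peak within 1 kb of an end in all 8 libraries, and of 45 further epithelial genes 6 did, where none of the 40 did. The 6 pluripotency genes, named after their values were seen, were Klf2, Klf5, Stat3, Il6st, Trim28 and Rif1. Several of them act in many tissues, such as Stat3 (a cytokine-activated factor) and Trim28 (a co-repressor), which had 4 regions in all 8 libraries. The epithelial Tjp3, a tight junction scaffold, had 3. No difference between the lists was tested.

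Peaks nearest to further epithelial genes numbered 36 and 22 (0h), 27 and 28 (6h), 39 and 30 (12h), and 21 and 26 (24h), and those nearest to further pluripotency genes stayed between 9 and 12 per library. Gains among the 92 regions of the further epithelial genes were 3 at 6h, 3 at 12h and 2 at 24h, and among the 39 regions of the further pluripotency genes 1, 1 and 0, beside 2, 3 and 0 of the 55 at the listed genes and the 1.85%, 4.03% and 1.12% of all regions. Losses at 6h, 12h and 24h were 3, 0 and 4 of the 92 and 0, 1 and 0 of the 39, beside 2, 0 and 2 of the 55 and the 2.34%, 1.45% and 4.43% of all regions.

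Genes of other cell types that a bone marrow sort could hold also had few peaks at their ends. Within 1 kb of an end, none of 16 stromal and endothelial, 1 of 16 lymphoid and 1 of 16 erythroid and megakaryocyte genes had a peak in all 8 libraries, against 32.7% of all coding genes. The most with such a peak in any single library were 1 of 16 stromal and endothelial and 2 of 16 each of the lymphoid and the erythroid and megakaryocyte genes. A peak in the window was found for 12.5% and 25.0% of the stromal and endothelial genes at 24h, against 25.0% to 56.2% at earlier times. The lymphoid and the erythroid and megakaryocyte windows had a peak more often, at 56.2% to 81.2% and 68.8% to 87.5% of genes per library. In every library it was 50.0% of lymphoid, 56.2% of erythroid and megakaryocyte and 12.5% of stromal and endothelial genes, beside 25.0% of the listed genes and 55.0% of all coding genes. Any part of such cells in the listed genes' peaks was not tested.

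Agreement between replicates was compared in the windows and over all regions. Of the regions called in either library of a time, both libraries called 45.2% (0h), 66.7% (6h), 58.1% (12h) and 59.1% (24h) in the windows, and 54.6%, 63.7%, 65.1% and 66.6% over all regions. The 0h pair, the least even in depth, had the lowest agreement in both.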

How the data were processed

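Chromatin accessibility was measured in 8 ATAC-seq libraries, 2 at each of 4 times, grouped by their labels. Alignment and peak calling used BWA, SAMtools and MACS2 on mm10, per the submitters' processing notes. The sources used here do not give their versions, or how reads were shifted and duplicates handled. A list of peaks per library was deposited by the authors, called without pooling replicates. Each list gives a fold enrichment (a linear ratio), a −log10 p-value, a −log10 q-value of at least 2 and the summit offset, all deposited by the authors and used here within 1 list at a time, for description, ranking and filtering.

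Total read counts were not used here. The pile-up at each summit was recovered from fold and −log10 p, within 0.001, for 99.8% to 99.9% of peaks per list. Peaks of the 19 autosomes and both sex chromosomes were merged at 1 bp of overlap. Gene positions and names came from a GRCm38.p6 table that gives no exons, so introns and exons were not resolved, and ends within 1 kb were counted as near. Calls rest on presence in the 2 libraries of a time. The merging and calling steps were tested on simulated lists that shared all peaks apart from planted gains and losses. Peaks missing from single replicates and uneven depth were not covered by that test. Trends used exact permutation with Benjamini-Hochberg adjustment over 3 measures. Python 3.11.15, NumPy 2.4.6 and SciPy 1.17.1 were used.

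The 40 genes and the other lists were chosen with earlier results of these data known. Values in every library are given for genes with a region gained, lost or called in all 8 libraries, or nearest to their own end in at least 4. Alternatives were lists of equal length (14826 peaks), a −log10 q of at least 5, the gene body alone, a window of 50 kb, only peaks nearest to a listed gene, a cover of at least 50%, a replicate block, each library left out, and, added after seeing the data, equal lists with only peaks nearest to a listed gene. Some items of the lists are not reported here.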

Additional observations from a re-analysis of the deposited data

How the results depend on the processing

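No trend changed direction in the settings listed here, but without both 24h libraries r and rho for peaks (0.23 and 0.24) and genes (0.21 and 0.12) were positive. A count of regions has no direction, and the counts moved as follows. Gains at 6h numbered 2, and 0 at −log10 q of at least 5 (1.79% of all regions) and in lists of equal length (2.37% of all). They numbered 1 at 50% overlap (1.73% of all), for the gene body alone and for peaks nearest to a listed gene. With 50 kb they numbered 4 (3.33%). The share of all regions was 1.85% in these last 3 settings. Losses at 6h numbered 2, and 1 for the gene body alone and for peaks nearest to a listed gene, and 5 with 50 kb (4.17%). The share of all regions lost was 2.34% in each of these. Gains at 12h numbered 3, and 2 at −log10 q of at least 5 (4.79% of all regions) and at 50% overlap (3.81% of all). They numbered 1 in lists of equal length (2.69% of all) and 7 with 50 kb (5.83%, beside 4.03% of all). Losses at 12h were 0, and 1 with 50 kb (0.833%, beside 1.45% of all). Losses at 24h numbered 2, and 1 at −log10 q of at least 5 (4% of all regions) and in lists of equal length (3.01% of all). They numbered 1 for the gene body alone and for peaks nearest to a listed gene, and 4 with 50 kb (3.33%). The share of all regions lost at 24h was 4.43% in these last 3 settings. With a library left out, counts ran from 2 to 6 (gained at 6h), 2 to 13 (lost at 6h), 3 to 9 (gained at 12h), 0 to 7 (lost at 12h), 0 to 2 (gained at 24h) and 2 to 18 (lost at 24h). The share of all regions moved too, up to 8.40%, 16.1%, 13.7%, 12.4%, 5.77% and 21.5% in that order. The highest counts of losses came without replicate 2 of 0h, where lost needed a peak in replicate 1 of 0h alone. No further cause was tested. Windows held 35 regions in lists of equal length, 44 at −log10 q of at least 5, 17 in gene bodies and 120 with 50 kb. Of the 9 calls at named regions, 5 held at −log10 q of at least 5, 4 in lists of equal length and 7 at 50% overlap, where those at Dppa5a and Cdh1 were lost. Lost at −log10 q of at least 5 and in lists of equal length were Dppa5a and Ovol2 at 6h, Tfcp2l1 at 12h and Ocln at 24h, and in lists of equal length also Cdh1 at 12h.

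Pearson's r with hours ran from -0.82 to -0.46 for peaks, -0.90 to -0.51 for genes and -0.89 to -0.70 for the share with a library left out. It passed 0.05 after adjustment for peaks and share without replicate 2 of 0h (exact p adjusted 0.043 for both), and for genes and share without replicate 1 of 12h (exact p adjusted 0.031 for both). In lists of equal length with only peaks nearest to a listed gene, r was -0.77, -0.84 and -0.77 for peaks, genes and share (exact p adjusted 0.029 for each). In the other settings no trend passed. No pairing by replicate number showed in the calls, since deviations of same-numbered libraries correlated at -0.0129 to 0.00502 over all regions. The check used only the presence of peaks in 2 libraries a time, so it cannot exclude a shared source. With a replicate block, rho for peaks was -0.49 (exact p = 0.27) and r for the share was -0.81 (exact p = 0.030, adjusted 0.089). Depth limits the absence of a peak most in replicate 2 of 0h, and peaks nearest to listed genes had 4 to 19 tags (median 9), where the lowest pile-ups of the lists were 4 and 5 tags.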

Other observations

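Of the 40 genes, 11 had no end of another protein-coding gene in their windows. Of these, 7 had a region in at least 1 library, and 4 had none. None of these 11 had a region called in every library, so all 13 such regions lay in windows that another gene reached into.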
